A study of Mus musculus with 7 samples.

Results

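The genes described here are a list of 41 mouse genes that act in mitosis and at the G2/M transition, the point at which a cell that has copied its DNA enters division. They were followed across 7 microarrays of bone marrow derived macrophages. A listed gene was measured when at least 1 probe set (a group of short probes on the array that reads out 1 transcript) carried its symbol and no other. This held for 40 of the 41, out of 18193 genes in all, and Ccnb1, which encodes cyclin B1, was not analysed here. For a gene with several such probe sets, the one with the highest mean over the 7 arrays was used.

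Bone marrow derived macrophages are macrophages grown in culture from marrow precursors, and they divide in culture. The study compared naive cells with cells that had already met a bacterial ligand, asking which genes respond in naive and in tolerant macrophages. The ligands were muramyl dipeptide (MDP), a fragment of bacterial cell wall sensed by NOD2, and Pam3CSK4, a synthetic bacterial lipopeptide sensed by TLR2. Each culture had a first period of 24 h and a second period of 3 h.

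There were 7 groups of 1 array each. Naive cells were left untreated for 24 h and then received nothing, MDP or Pam3CSK4 for 3 h, and these arrays are called unstimulated, naive MDP and naive Pam3CSK4. Cells given MDP for 24 h received MDP or Pam3CSK4 for the following 3 h, and their arrays are called MDP-MDP and MDP-Pam3CSK4. Cells given Pam3CSK4 for 24 h likewise received MDP or Pam3CSK4, giving the Pam3CSK4-MDP and Pam3CSK4-Pam3CSK4 arrays. The labels give neither the mouse strain nor whether the cultures came from the same animals. The pretreated cells had no array of their own without a second ligand, so the 24 h treatment and what the 3 h ligand added to it are seen together. With 1 array a group no spread between replicates could be measured, so no test was run, and every difference below is between single arrays.

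Passage into mitosis is driven by Cdk1 bound to A and B cyclins, which the Cdc25 phosphatases switch on. Polo and Aurora kinases then build the spindle, kinetochores couple chromosomes to microtubules, and the spindle checkpoint holds back the anaphase-promoting complex until every chromosome is attached. Transcripts of these genes are made in a wave late in the cycle. This is set largely by promoter elements called the cell cycle genes homology region (CHR) and the CCAAT box, the second of which is bound by NF-Y. In a dish where few cells divide the transcripts are therefore scarce.

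The promoters of 4 members are shown, chosen by their mean difference from unstimulated cells on the Pam3CSK4-pretreated arrays and not by their motifs. Cenpa, Ccnb2 and Cdc20 had the 3 lowest differences among members with a promoter entry, and they carry both elements. Kif20a, whose difference lay between those of Ccnb2 and Cdc20, had no entry. Pttg1 was the only member higher on the Pam3CSK4-pretreated arrays than in unstimulated cells. Each sequence is 180 bases of the RefSeq promoter table on build GRCm38.p6, 150 before and 30 from the annotated start, on the gene's own strand. Capitals mark TTTGAA or TTTAAA (the CHR and its variant) and CCAAT, which appears as ATTGG where it lies on the other strand.
Cenpa, chr5:30666736-30666915, plus strand: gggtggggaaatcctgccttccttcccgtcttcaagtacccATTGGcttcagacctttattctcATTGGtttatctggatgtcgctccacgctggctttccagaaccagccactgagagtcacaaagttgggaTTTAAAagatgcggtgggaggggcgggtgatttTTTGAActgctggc
Ccnb2, chr9:70421525-70421704, minus strand: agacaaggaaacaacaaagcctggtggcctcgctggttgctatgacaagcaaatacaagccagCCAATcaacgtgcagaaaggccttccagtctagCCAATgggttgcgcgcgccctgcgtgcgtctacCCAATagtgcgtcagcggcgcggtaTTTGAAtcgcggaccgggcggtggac
Cdc20, chr4:118437314-118437493, minus strand: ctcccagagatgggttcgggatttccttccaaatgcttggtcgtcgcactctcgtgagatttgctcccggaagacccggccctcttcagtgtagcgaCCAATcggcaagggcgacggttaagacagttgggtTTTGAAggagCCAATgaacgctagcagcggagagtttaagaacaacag
Pttg1, chr11:43425952-43426131, minus strand: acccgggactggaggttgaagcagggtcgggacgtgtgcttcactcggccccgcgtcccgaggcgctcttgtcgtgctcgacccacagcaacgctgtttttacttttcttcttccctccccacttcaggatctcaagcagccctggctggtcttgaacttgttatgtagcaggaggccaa

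In Cenpa the TTTGAA lies 17 bases into the transcript with CCAAT boxes starting at -109 and -86. In Ccnb2 it lies at position 5 behind CCAAT boxes at -87, -54 and -21, and in Cdc20 at -18, between CCAAT boxes at -53 and -8. The Pttg1 window held none of these letters, but its annotated start, 43425981, lies inside the annotated gene (43420244 to 43427463), so a promoter at the gene's outer end is not in this window.

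The members were lowest in cells treated with Pam3CSK4 for 24 h and highest in cells treated with MDP for 24 h. After 24 h of Pam3CSK4, 39 of the 40 members were below the unstimulated array, whichever ligand followed, with a median log2 difference of -0.89 with MDP and -0.81 with Pam3CSK4. The small differences of Bub1 on the first array and of Cdc25c on the second turned above 0 under a different scaling of the arrays or probe set rule. After 24 h of MDP followed by MDP, 39 of the 40 were above it, with a median of 0.59. A log2 difference of 1 is a 2-fold difference. Naive cells given a ligand for 3 h had medians of -0.11 with MDP and -0.33 with Pam3CSK4, and MDP-pretreated cells given Pam3CSK4 had 0.17. The median over all 18193 genes stayed between -0.01 and 0.01 in these 6 comparisons. As these are bulk samples, fewer dividing cells and less RNA per dividing cell cannot be told apart.

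**Figure D1:**
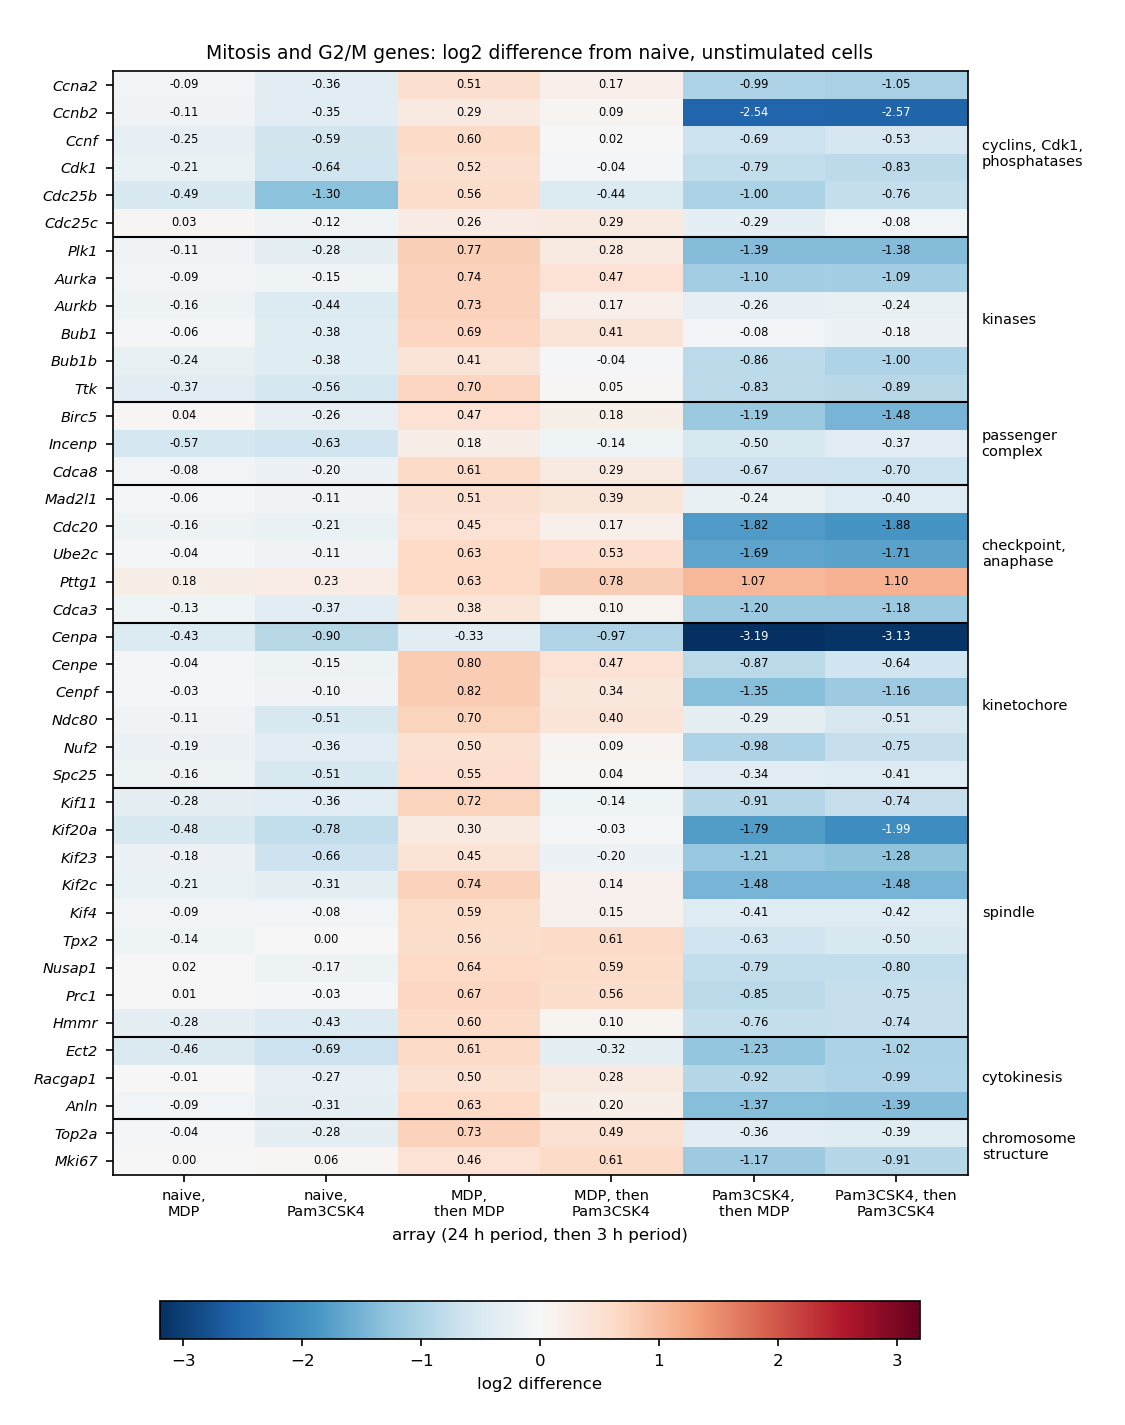
Log2 difference of each of the 40 measured members (vertical, grouped by role) from the unstimulated array on each of the 6 stimulated arrays (horizontal), 1 array a group. Both Pam3CSK4-pretreated columns are blue for every member except Pttg1, and the MDP-MDP column is above 0 for every member except Cenpa.

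In the Pam3CSK4-MDP array 16 of the 40 members were at least 2-fold lower than unstimulated, where 2.59% of all genes were, and 1 was at least 2-fold higher, where 2.78% of all genes were. In the Pam3CSK4-Pam3CSK4 array 15 members were at least 2-fold lower, against 2.29% of all genes, and 1 was higher, against 2.66%. The 39 members below the unstimulated array at any size compare with 45.8% of all genes in the first array and 44.0% in the second. A total of 14 members were at least 2-fold lower on both arrays and 17 on at least 1 of them, counts for which no share of all genes was taken. These arrays were close to each other over all genes and share the unstimulated array, so the overlap is no separate result about the members. The mean of all probe sets of a gene gave 9 members in place of 15 on the second array. Several members lay close to the 2-fold line on 1 array or both, among them Cdc25b at -1.00 and -0.76, Bub1b at -0.86 and -1.00, Nuf2 at -0.98 and -0.75, Racgap1 at -0.92 and -0.99, and Ccna2 at -0.99 and -1.05. On the first array Cdc25b was no longer 2-fold lower with arrays centred on housekeeping genes, with cyclic loess or after adding 32 to the linear values.

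For 31 of the 40 members both Pam3CSK4-pretreated arrays were lower than each of the other 5, a pattern that 14.7% of all genes had. In a separate list of 13 housekeeping genes, 6 had this pattern. The members without it were Ccnf, Cdc25b, Cdc25c, Aurkb, Bub1, Incenp, Ndc80 and Spc25, each with naive Pam3CSK4 below at least 1 array of the pair, and Pttg1. For 35 of the 40 the MDP-MDP array was the highest of the 7, which was so for 10.1% of all genes. It was also so for 5 of the 13 housekeeping genes, 57 of 71 other mitosis genes and 28 of 39 DNA replication genes. The exceptions among the members were Cdc25c, Tpx2 and Mki67, highest in MDP-Pam3CSK4, Cenpa, highest in unstimulated cells, and Pttg1, highest in Pam3CSK4-Pam3CSK4.

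Among the measured cyclins, which do not include Ccnb1, Ccnb2 lay furthest below unstimulated cells after 24 h of Pam3CSK4. Ccnb2 encodes a partner of Cdk1 at mitotic entry. Its log2 level was 10.34 in unstimulated cells, 10.22 in naive MDP, 9.99 in naive Pam3CSK4, 10.62 in MDP-MDP, 10.42 in MDP-Pam3CSK4, 7.80 in Pam3CSK4-MDP and 7.77 in Pam3CSK4-Pam3CSK4. The 5 other arrays lay within a narrow band and the Pam3CSK4-pretreated pair lay far beneath it, 5.82-fold and 5.94-fold below the unstimulated array. Ccna2, the cyclin of S phase and early mitosis, had 10.13, 10.04, 9.77, 10.65, 10.30, 9.14 and 9.08 in the same order, so the same pair was lowest by a smaller margin. Ccnf, a cyclin-like subunit of a ubiquitin ligase, was at -0.69 and -0.53 against unstimulated on the pair, close to its -0.59 in naive Pam3CSK4.

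Cdk1, the kinase that the cyclins activate, had log2 levels of 10.31, 10.09, 9.67, 10.83, 10.27, 9.51 and 9.48 in the same order of arrays. The Pam3CSK4-pretreated arrays were 1.74-fold and 1.78-fold below unstimulated, less than for its partner Ccnb2, and naive Pam3CSK4 lay only slightly above them. Cdc25b, a phosphatase that activates Cdk1, had levels of 8.95, 8.46, 7.65, 9.51, 8.51, 7.95 and 8.19. Its lowest array was naive Pam3CSK4, and within the naive and the MDP-pretreated cells it was lower with Pam3CSK4 as the 3 h ligand than with MDP. Cdc25c, a relative of Cdc25b, ranged only from 5.47 to 6.05, and its value in Pam3CSK4-MDP was below the median of all probe sets, where signal cannot be told from background.

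Of the mitotic kinases, Plk1 and Aurka were over 2-fold lower on both Pam3CSK4-pretreated arrays. Plk1, which acts at centrosomes and kinetochores, measured 8.85, 8.73, 8.56, 9.62, 9.12, 7.46 and 7.46. Aurka, the centrosomal Aurora kinase, measured 9.12, 9.03, 8.97, 9.85, 9.59, 8.02 and 8.02. Both thus had MDP-MDP on top and the Pam3CSK4 pair clearly at the bottom. The checkpoint genes Ttk and Bub1b lay between -0.83 and -1.00 on that pair.

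Aurkb and Bub1 differed from the other kinases. Aurkb, the kinase of the chromosomal passenger complex, measured 8.15, 7.99, 7.71, 8.87, 8.32, 7.89 and 7.91, and Bub1, a checkpoint kinase at the kinetochore, 8.65, 8.59, 8.27, 9.34, 9.06, 8.58 and 8.47. For these genes naive Pam3CSK4 was the lowest array and the Pam3CSK4-pretreated pair lay between -0.08 and -0.26 against unstimulated. Their high value in MDP-MDP, 0.73 and 0.69 above unstimulated, was like that of the rest. The other Aurkb probe set gave -0.46 in naive Pam3CSK4 and -0.48 and -0.80 on the pair, so by that probe set the pair was lowest, Pam3CSK4-MDP by a small margin, and the pattern of Aurkb depends on the probe set.

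The partners of Aurkb in the passenger complex, which corrects faulty attachments and guides cell division, gave different values. Birc5, the gene for survivin, measured 10.11, 10.15, 9.85, 10.58, 10.29, 8.92 and 8.63, and its difference between the Pam3CSK4-pretreated arrays, 0.29, was the largest of any member. Cdca8, the gene for borealin, was at -0.67 and -0.70 on the pair, and Incenp, the scaffold, at -0.50 and -0.37. Incenp was also at -0.57 and -0.63 in the naive MDP and naive Pam3CSK4 arrays, so the Pam3CSK4 pair did not stand apart for it.

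The group around anaphase entry held members that differed in opposite directions. Cdc20, which activates the anaphase-promoting complex, measured 10.07, 9.92, 9.86, 10.52, 10.24, 8.26 and 8.19. Ube2c, the ubiquitin-conjugating enzyme of that complex, measured 10.86, 10.82, 10.75, 11.49, 11.38, 9.17 and 9.15. By the probe sets used, both were over 3-fold below unstimulated on the Pam3CSK4 pair and nearly level across the 3 naive arrays. One other Cdc20 probe set gave -2.01 and -1.93 on the pair and another -0.67 and -0.50, so the size for Cdc20 depends on the probe set. Cdca3, which helps remove a mitosis inhibitor, was at -1.20 and -1.18, whereas the checkpoint gene Mad2l1 was at -0.24 and -0.40. Another Cdca3 probe set above an array median gave 0.15 and 0.04, so the value of Cdca3 depends on the probe set. The 15 measured subunits and partners of the anaphase-promoting complex, a separate list, had no member at least 2-fold apart from unstimulated on any array. On no array were more than 2.59% of all genes 2-fold lower or more than 3.03% higher, so any list of 15 would hold few or none.

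Pttg1, the gene for securin, which holds separase inactive until anaphase, was the exception of the list. Its log2 level was 12.32 in unstimulated cells, 12.50 in naive MDP, 12.55 in naive Pam3CSK4, 12.95 in MDP-MDP, 13.10 in MDP-Pam3CSK4, 13.39 in Pam3CSK4-MDP and 13.42 in Pam3CSK4-Pam3CSK4. The unstimulated array was the lowest and the Pam3CSK4 pair the highest, 2.10-fold and 2.15-fold above it, and all 4 pretreated arrays were above the 3 naive ones. Its 2 other probe sets were also higher on the pair, by 1.24 and 1.30 and by 0.87 and 0.64. The last of these did not share the order of the arrays, with -0.03 in MDP-MDP and 0.79 in MDP-Pam3CSK4. The probe set used for Pttg1 has a name ending that marks probes which may also bind other transcripts, as do those of 5 other members, but its 2 other probe sets do not.

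**Figure D2:**
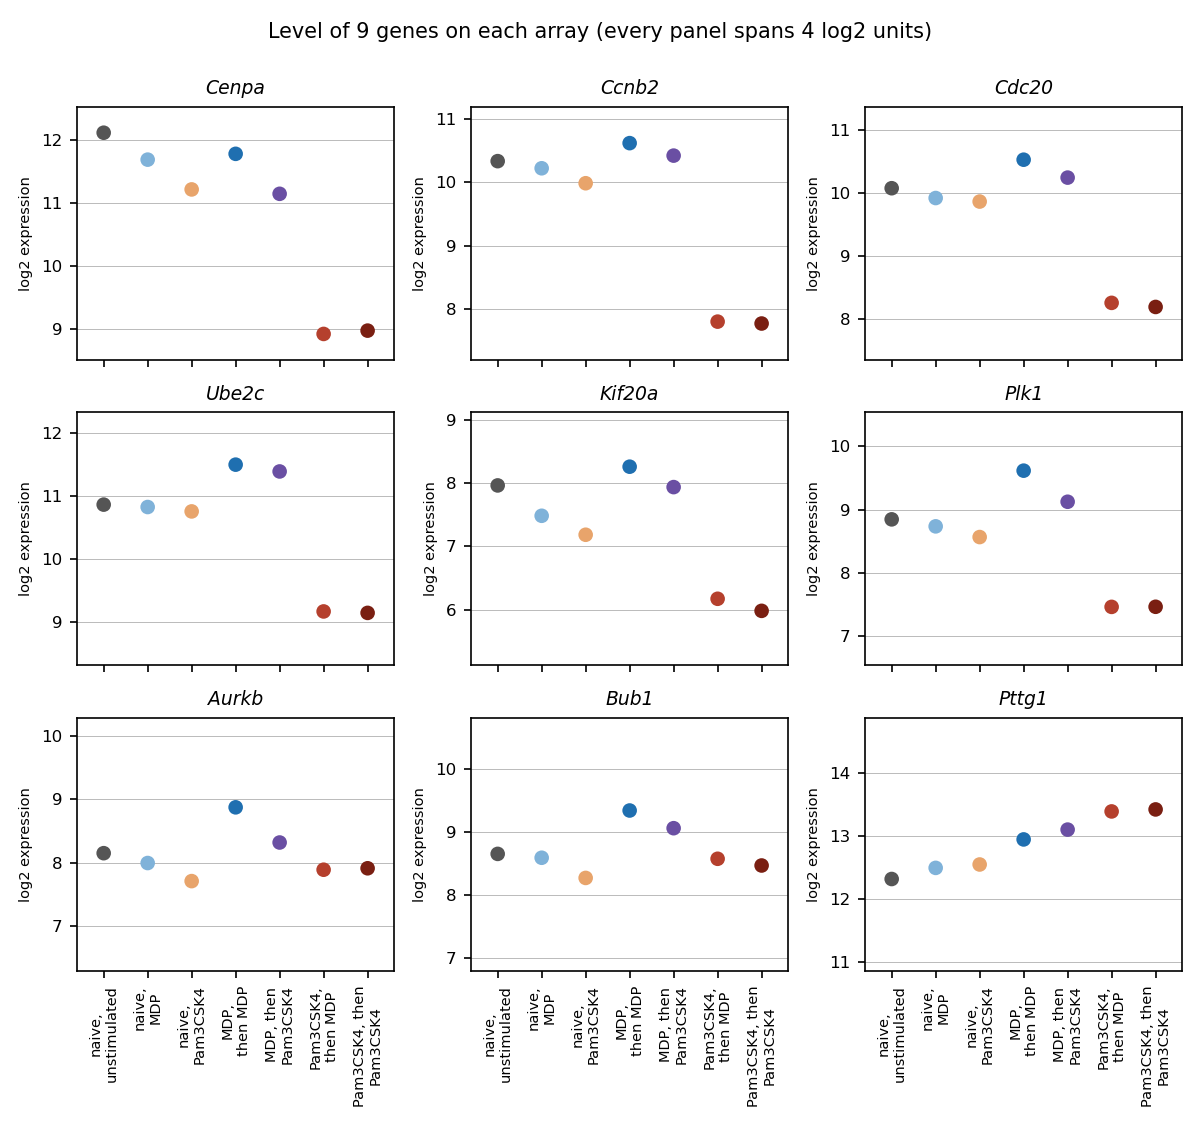
Log2 level (vertical axis, 4 log2 units in every panel) of 9 members on each of the 7 arrays (horizontal axis), 1 point an array. For Cenpa, Ccnb2, Cdc20, Ube2c, Kif20a and Plk1 the Pam3CSK4-pretreated points lie below the other 5, for Aurkb and Bub1 the naive Pam3CSK4 point is lowest, and for Pttg1 the Pam3CSK4-pretreated points are highest.

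Among centromere and kinetochore genes, Cenpa had the largest difference of the list. It encodes the histone variant that marks centromeres, and its log2 level was 12.11 in unstimulated cells, 11.68 in naive MDP, 11.21 in naive Pam3CSK4, 11.78 in MDP-MDP, 11.14 in MDP-Pam3CSK4, 8.93 in Pam3CSK4-MDP and 8.98 in Pam3CSK4-Pam3CSK4. The pair was 9.10-fold and 8.77-fold below unstimulated, and Cenpa was also the only member below unstimulated on all 6 other arrays. A second Cenpa probe set, above the array median on at least 1 array, gave -0.59 and -0.58 on the pair, so the size rests on the brighter probe set. The mean of all its probe sets gave -1.26 and -1.27.

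Cenpf, a large protein of the outer kinetochore, measured 7.14, 7.11, 7.04, 7.96, 7.48, 5.79 and 5.98, with the largest excess of any member in MDP-MDP over unstimulated, 0.82. The motor Cenpe was at -0.87 and -0.64 on the Pam3CSK4 pair and 0.80 higher in MDP-MDP. The NDC80 complex, which binds microtubules, has 3 genes here. Of these Nuf2 was at -0.98 and -0.75 on the pair, Ndc80 at -0.29 and -0.51, and Spc25 at -0.34 and -0.41. For Spc25 the naive Pam3CSK4 array was the lowest of the 7. For Ndc80 it was level with Pam3CSK4-Pam3CSK4, at 6.61 on both arrays, and which was lower changed with housekeeping centring and cyclic loess.

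All 9 genes of spindle motors and microtubule proteins were lower on both Pam3CSK4-pretreated arrays by the probe sets used, under each scaling too. Kif20a, a motor of the late spindle, measured 7.97, 7.48, 7.18, 8.26, 7.94, 6.17 and 5.98, and Kif2c, which takes microtubules apart at centromeres, 7.96, 7.75, 7.66, 8.70, 8.11, 6.49 and 6.48. Both had the Pam3CSK4 pair lowest, but only Kif20a was clearly lower in naive cells after 3 h of either ligand, at -0.48 with MDP and -0.78 with Pam3CSK4. Kif23, the motor of the central spindle, was at -1.21 and -1.28 on the pair. The 6 others lay between -0.91 and -0.41: Kif11, which pushes spindle poles apart, Prc1, which bundles antiparallel microtubules, Nusap1, Hmmr and Tpx2, which bind spindle microtubules, and the chromosome motor Kif4. The 3 other Kif2c probe sets above an array median differed from unstimulated by -0.60 to 0.15 on the pair, so the size for Kif2c depends on the probe set. For Tpx2 even the direction does: 1 other probe set gave -1.11 and -1.45 on the pair, and 2 others gave 0.10 and 0.54 and 0.46 and 0.42. Of the 29 further probe sets of members that were above an array median, 24 had the sign of the one used in Pam3CSK4-MDP and 26 in Pam3CSK4-Pam3CSK4. Those of opposite sign belonged to Tpx2 and Cdca3 on both arrays and to Bub1b and Kif2c on the first.

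The cytokinesis genes Anln, Ect2 and Racgap1, which position and drive the contractile ring, were all lower on the Pam3CSK4 pair. Anln measured 8.78, 8.70, 8.47, 9.41, 8.98, 7.41 and 7.39, so that its pair lay over 1 log2 unit beneath the lowest other array. Ect2 was at -1.23 and -1.02 on the pair, and also at -0.46 and -0.69 in naive MDP and naive Pam3CSK4. Top2a, the topoisomerase that untangles sister chromosomes, was at only -0.36 and -0.39 on the pair and measured 9.65, 9.62, 9.38, 10.39, 10.15, 9.30 and 9.26. Mki67, which coats mitotic chromosomes and is the usual marker of cycling cells, measured 9.90, 9.90, 9.96, 10.36, 10.51, 8.73 and 8.99. Its 3 naive arrays were nearly equal, with both MDP-pretreated arrays above them and both Pam3CSK4-pretreated arrays below.

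In naive cells the 3 h ligands left most members slightly lower. With MDP 34 of the 40 were below unstimulated, where 49.1% of all genes were, and none was 2-fold lower or higher, against 0.170% and 0.583% of all genes. With Pam3CSK4 37 were below, against 49.8% of all genes. Only Cdc25b was 2-fold lower there, against 1.95% of all genes, and none was 2-fold higher, against 2.27%. Placed directly against each other, naive Pam3CSK4 was below naive MDP for 36 of the 40 members, against 56.9% of all genes, with a median difference of -0.18, and none was 2-fold apart, where 2.11% of all genes were. The small shift with naive MDP depended on scaling: the count of members below unstimulated ran from 28 with cyclic loess to 39 with arrays centred on their medians.

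MDP for 24 h went with higher members. None was 2-fold from unstimulated in MDP-MDP, where 0.0385% of all genes were 2-fold lower and 0.390% higher, but 39 were above it, where 42.7% of all genes were. In MDP-Pam3CSK4 31 were above it, against 43.3% of all genes, and none was 2-fold lower or higher, against 1.80% and 3.03%. The range in MDP-MDP was narrow, from 0.18 for Incenp to 0.82 for Cenpf, with Cenpa apart at -0.33. Pam3CSK4 as the second ligand gave lower values than MDP for 36 of the 40 members in MDP-pretreated cells, against 50.5% of all genes, with a median difference of -0.33. There Cdc25b was 2-fold lower, at -1.01, followed by Ect2 at -0.93 and Kif11 at -0.85, and 3.84% of all genes were 2-fold apart.

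Against naive cells given the same ligand for 3 h, the members were again on opposite sides after the 2 pretreatments. MDP-MDP was above naive MDP for all 40 members, where 43.2% of all genes were above, with a median of 0.71. The 3 members at least 2-fold higher were Ttk, Ect2 and Cdc25b, at 1.07, 1.07 and 1.05, against 0.385% of all genes, and none was 2-fold lower, against 0.291%. The count higher was 5 with arrays centred on their medians and 0 after adding 32 to the linear values. MDP-Pam3CSK4 was above naive Pam3CSK4 for 39 members, against 47.9% of all genes, with a median of 0.54. None was 2-fold higher or lower there, against 0.297% and 0.0220% of all genes, and Cenpa, at -0.07, was the member below. These comparisons share arrays with those against the unstimulated cells or with each other and are not independent of them.

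Pam3CSK4-MDP was below naive MDP for 38 members, against 50.9% of all genes, with a median of -0.79. There 14 members were 2-fold lower, against 1.71% of all genes, and none 2-fold higher, against 2.14%. By the mean of probe sets 8 were 2-fold lower, and without the less specific probe sets 1 was higher. Pam3CSK4-Pam3CSK4 was below naive Pam3CSK4 for 31 members, against 42.9% of all genes, with a median of -0.50. In that comparison 10 members were 2-fold lower, against 2.30% of all genes, and none higher, against 2.41%. The count lower was 5 after adding 32 to the linear values and 6 by the mean of probe sets, and 1 member was higher without the less specific probe sets. The lowest 4 were the same in both: Cenpa at -2.76 and -2.24, Ccnb2 at -2.43 and -2.22, Cdc20 at -1.66 and -1.67, and Ube2c at -1.65 and -1.61. Cdc25b, at -0.51 in the first comparison and 0.54 in the second, changed side with the naive array it was set against.

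After Pam3CSK4 pretreatment the second ligand made little difference to the members. Pam3CSK4-Pam3CSK4 was below Pam3CSK4-MDP for 21 members, against 44.7% of all genes, and above it for 19, with differences from -0.29 for Birc5 to 0.26 for Mki67. None was 2-fold apart, where 0.00550% of all genes, a single gene, were. These arrays were the closest of all 21 pairs, with a median absolute difference of 0.07 over all genes. They are separate cultures by their labels, but how they relate to each other is not given, and their closeness is no measure of replicate error in the other groups.

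**Figure D3:**
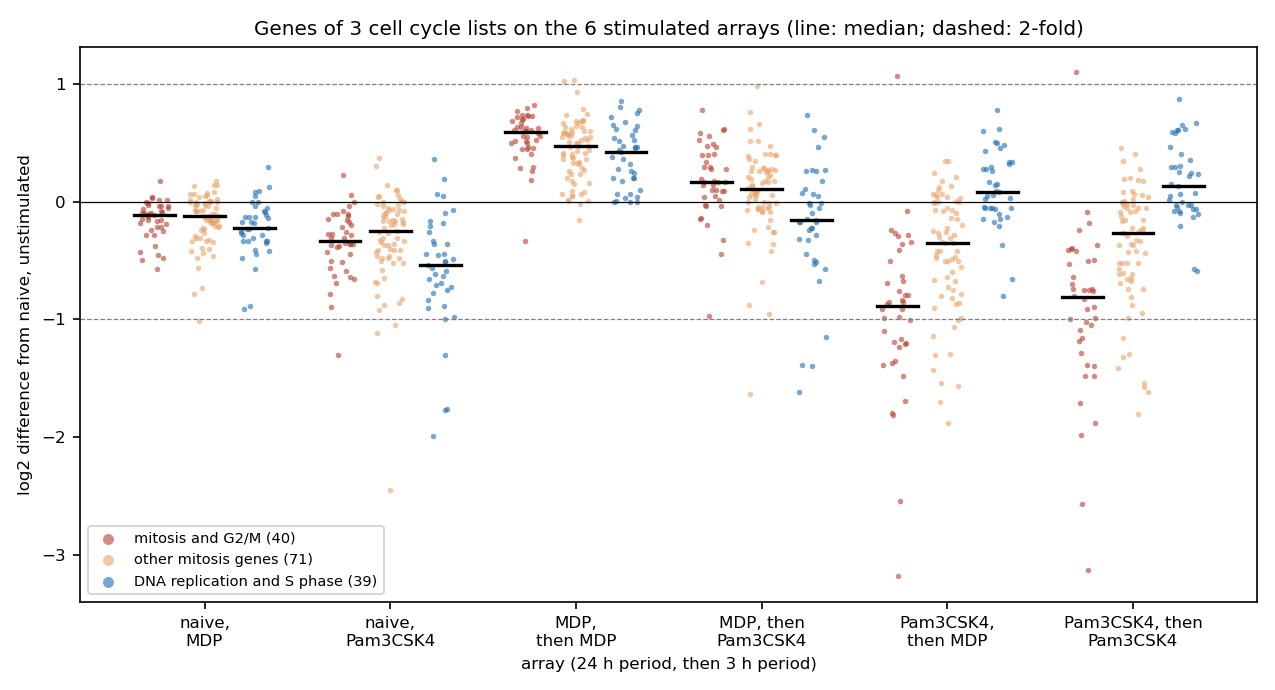
Log2 difference from the unstimulated array (vertical axis) of single genes on each of the 6 stimulated arrays (horizontal axis) for the 40 members, 71 other mitosis genes and 39 DNA replication genes, with a line at each median. On the Pam3CSK4-pretreated arrays the medians are -0.89 and -0.81 for the members, -0.35 and -0.27 for the other mitosis genes, and 0.08 and 0.14 for the replication genes.

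Other genes of the cell cycle were read from separate lists. Of 71 further mitosis genes, 10 were at least 2-fold lower in Pam3CSK4-MDP and 8 in Pam3CSK4-Pam3CSK4, with medians of -0.35 and -0.27, and 28 had both arrays below the other 5. The lowest were Aspm, a spindle pole protein, at -1.88 and -1.62, Cdkn3, a phosphatase of cyclin-dependent kinases, at -1.70 and -1.80, the centrosomal kinase Nek2 at -1.57 and -1.57, and the microtubule-destabilising Stmn1 at -1.54 and -1.54. Like the members, these genes were mostly higher in MDP-MDP, 69 of 71 with a median of 0.47.

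The 39 genes of DNA replication and S phase stood near the unstimulated level after Pam3CSK4 pretreatment. Their medians were 0.08 and 0.14, none was 2-fold from unstimulated on either array, and for none were both arrays below the other 5. Their lowest median was in naive Pam3CSK4, at -0.53, where Gmnn, an inhibitor of origin licensing, was at -1.76 and the licensing factor Cdt1 at -1.31. Cdc6 and Ccne2 were also at least 2-fold lower there, each to a level below the array's median. Against naive Pam3CSK4, Pam3CSK4-Pam3CSK4 had a median of 0.72 for the replication genes and -0.50 for the members. In MDP-MDP both lists were higher, with 37 of the 39 replication genes above unstimulated and a median of 0.42.

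On the Pam3CSK4 pair the known regulators of these genes had medians of -0.01 and -0.01 against unstimulated. Foxm1, which activates late cell cycle genes, measured 6.99 in unstimulated cells and 7.06 and 7.14 on the Pam3CSK4 pair. Among 26 such regulators only Myc, a driver of growth and cycling, was 2-fold from unstimulated on the pair, at -1.01 and -1.11. Cdkn1a, the gene for the p21 inhibitor of cyclin-dependent kinases, was highest in MDP-Pam3CSK4, 1.46 above unstimulated, and was 1.27 higher in naive Pam3CSK4 and 0.70 and 0.65 higher on the pair. Its part in the members' values was not tested. E2f1, which acts on S phase genes, was 0.27 and 0.30 higher on the pair. The regulators E2f7 and E2f8 were also higher there, E2f7 by 0.50 and 0.71 and E2f8 by 0.26 and 0.52. In MDP-Pam3CSK4 E2f8 was 1.04 above unstimulated.

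Of the 40 members, 34 had an entry in the RefSeq promoter table, which covers 250 bases before and 50 after the annotated start. TTTGAA, on either strand, was in 26 of the 34, or 76.5%, against 20.2% of the 27025 genes of the table, 56.1% of the other mitosis genes and 12.5% of the replication genes. CCAAT was in 76.5% of the members, 41.1% of all genes, 71.9% of the other mitosis genes and 59.4% of the replication genes. Both together were in 67.6% of the members, 8.97% of all genes, 42.1% of the other mitosis genes and 9.38% of the replication genes. The variant TTTAAA, which differs from TTTGAA by 1 letter, was in 23.5% against 14.9%. An E2F site, searched as TTTCGCGC, TTTGGCGC, TTTCCCGC or TTTGCCGC, was in 1 member, Cdk1, or 2.94%, against 2.61% of all genes and 43.8% of the replication genes. These shares describe letters in a window and not binding.

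TTTGAA started within 50 bases of the annotated start in 24 of the 34 members, against 5.72% of all genes, a window chosen after its positions had been seen. The 26 members with TTTGAA had a median difference of -1.00, averaged over the Pam3CSK4 pair, and the 8 without it -0.77. The members without it were Birc5, Cdc25b, Nuf2, Nusap1, Cenpe, Mad2l1, Bub1 and Pttg1, so that Birc5 was over 2-fold lower without these letters, while Top2a and Kif4, which have them, were among the members that differed least.

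**Figure D4:**
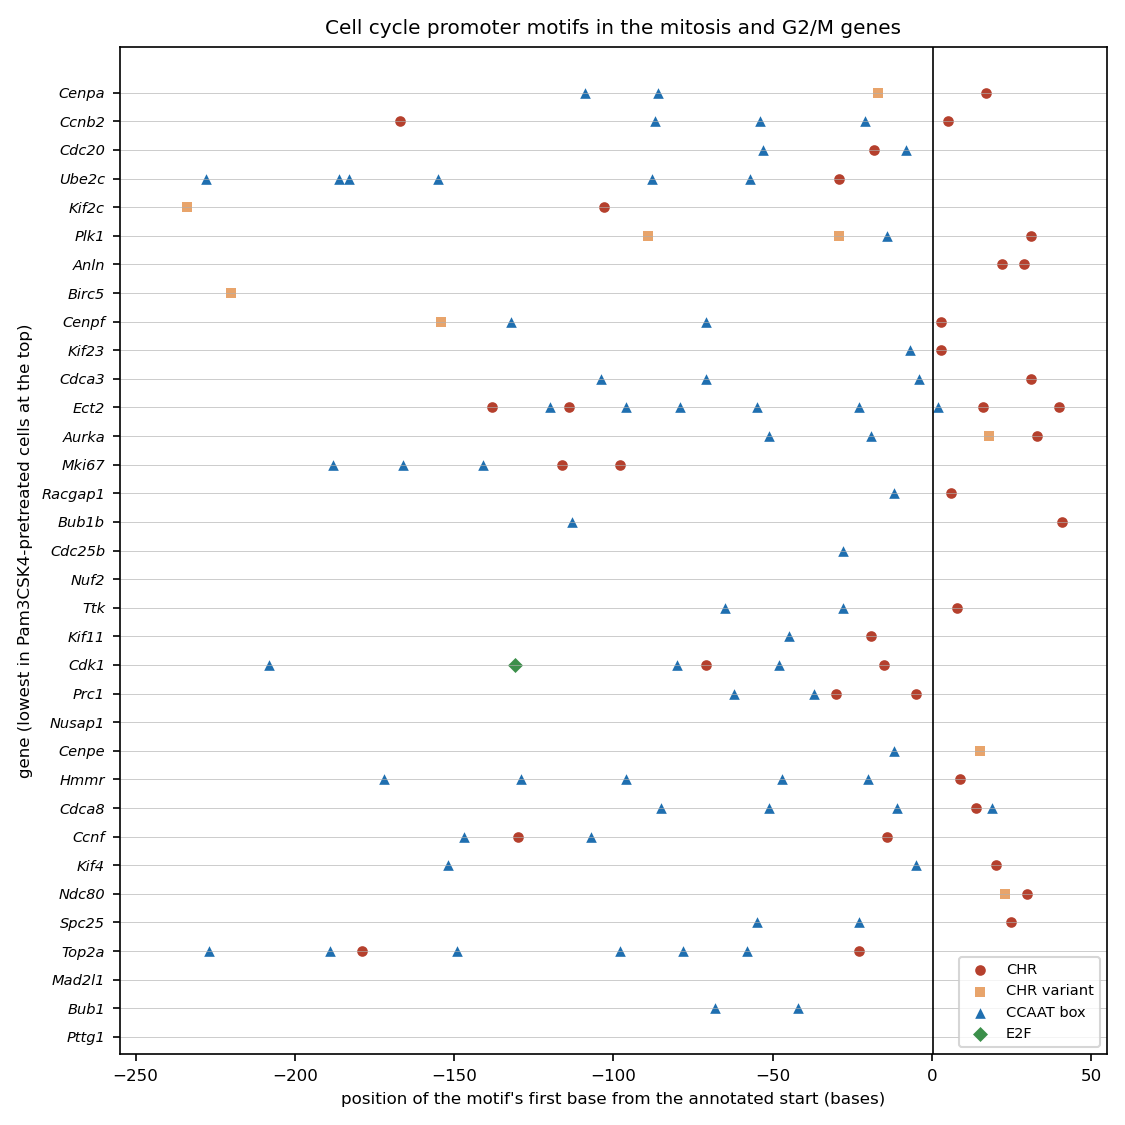
Position of each motif's first base relative to the annotated start (horizontal axis, in bases) in the 34 members with a promoter entry. Members are ordered by their mean difference from unstimulated on the Pam3CSK4-pretreated arrays, with the lowest difference at the top (vertical axis). CHR matches gather around the start, 24 of the 34 members having one within 50 bases, with CCAAT boxes mostly before them.

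All 11 measured macrophage markers were above the array median on every array, with summed log2 levels of 16.84 to 16.93. Single markers still differed from unstimulated. On the Pam3CSK4 pair Mrc1 was at -1.73 and -1.72, Itgam at 1.27 and 1.27, and Fcgr1 at 1.04 and 1.13. Cebpa was at -1.12 in Pam3CSK4-MDP. In naive Pam3CSK4 and MDP-Pam3CSK4, Mertk was at -2.29 and -1.79 and Cebpa at -1.86 and -2.31. Mertk was also at -1.18 in naive MDP. Markers of neutrophils, 6 of 6 above the median, had summed log2 levels of 12.95 to 13.19 on the other 5 arrays and of 13.70 and 13.65 on the Pam3CSK4 pair. Bright genes weigh most in such a sum. S100a8 was 1.12 and 1.10 above unstimulated on the pair, whereas 2 of the 6 markers on the first array and 3 on the second were below it, with Ltf at -1.16 on the second. Markers of stromal cells, 2 to 3 of 10 above the median, lay between 8.61 and 8.70 on the other 5 arrays and at 9.37 and 9.21 on the pair, where Dcn was 1.87 and 1.56 higher than unstimulated. B cell markers, 3 to 4 of 6 above, lay at 10.71 to 10.81 on the naive arrays and 9.30 to 9.52 on all 4 pretreated ones. Only Ighm was 2-fold lower there, at -2.01, -1.96, -2.63 and -2.77 in the order MDP-MDP, MDP-Pam3CSK4, Pam3CSK4-MDP and Pam3CSK4-Pam3CSK4, and the median of the list lay between 0.00 and 0.06. Early progenitor markers, 4 to 5 of 10 above, lay between 9.09 and 9.44, T and NK markers, 3 to 4 of 8 above, between 8.90 and 9.03, and erythroid and mast cell markers, 1 to 3 of 7 above, between 7.83 and 7.99. The part of these cells in the members' differences was not tested. The 18S control probe sets, which read ribosomal RNA, were 1.70 above unstimulated in Pam3CSK4-Pam3CSK4 and 0.28 to 0.48 on the other stimulated arrays. No measure of RNA integrity was computed. The members' median was -0.89 in Pam3CSK4-MDP and -0.81 in Pam3CSK4-Pam3CSK4, and whether the 18S signal bears on the members' values was not tested.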

How the data were processed

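The authors deposited 1 table of log2 expression values for 45101 probe sets on 7 Affymetrix mouse arrays, with RMA and affy named as tools per the submitters' processing notes. RMA subtracts background, forces all arrays to 1 distribution of values and summarises each probe set, so a shift shared by most genes would be removed. The labels give replicate number 2 on every array. Gene names came from the platform annotation: 34945 probe sets had exactly 1 symbol, and the brightest on average stood for each of 18193 genes. Log2 differences between single arrays were computed in Python 3.11.15 with pandas 2.3.3, with a 2-fold threshold and no test. Alternatives covered scaling (with limma 3.58.1 for cyclic loess), the probe set rule, low values and the threshold, and counting was tested on simulated data. Of other lists, up to 4 genes per comparison were named, those with the largest difference among genes at least 2-fold apart, besides Foxm1, Mybl2, E2f1, E2f7, E2f8, Myc, Cdkn1a, Csf1r and Pcna. The members and lists were chosen with earlier results of these data known, and 3 direct comparisons of the second ligand were added after the values had been seen.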

Additional observations from a re-analysis of the deposited data

Results flagged for a closer look

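The median log2 difference of the 40 members from the unstimulated array was 0.59 in MDP-MDP and 0.17 in MDP-Pam3CSK4, but -0.89 in Pam3CSK4-MDP and -0.81 in Pam3CSK4-Pam3CSK4. These 4 values were singled out because the MDP-pretreated arrays lay on one side of the unstimulated array and the Pam3CSK4-pretreated arrays on the other. The difference between the pretreatments was not tested, since each group had 1 array.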

How the results depend on the processing

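No median of the members changed sign under any scaling, probe set or low-value alternative: against unstimulated it ran from -0.91 to -0.69 in Pam3CSK4-MDP, -0.89 to -0.64 in Pam3CSK4-Pam3CSK4 and 0.46 to 0.62 in MDP-MDP. On the Pam3CSK4-pretreated arrays the members whose sign against unstimulated turned were Bub1 and Cdc25c, neither 2-fold apart. With a 1.5-fold threshold, members lower than unstimulated numbered 30 in Pam3CSK4-MDP (7.41% of all genes), 28 in Pam3CSK4-Pam3CSK4 (6.58%), 8 in naive Pam3CSK4 (6.07%) and 1 in MDP-Pam3CSK4 (5.32%), and members higher 21 in MDP-MDP (1.56%) and 4 in MDP-Pam3CSK4 (5.41%). Against naive cells with the same ligand it gave 31 higher in MDP-MDP (2.26%), 15 higher in MDP-Pam3CSK4 (1.76%), 24 lower (4.89%) and 1 higher (4.95%) in Pam3CSK4-MDP, and 19 lower (5.25%) and 1 higher (6.77%) in Pam3CSK4-Pam3CSK4. With a 3-fold threshold, 5 were lower than unstimulated in each of Pam3CSK4-MDP (0.726%) and Pam3CSK4-Pam3CSK4 (0.720%), with 0 higher in either (1.42% and 1.37%) and 0 lower in naive Pam3CSK4 (0.605%). Against the naive ligand 4 were lower in each of Pam3CSK4-MDP (0.473%) and Pam3CSK4-Pam3CSK4 (0.907%), and 0 higher in MDP-MDP (0.0440%). The mean of all probe sets of a gene gave 9 lower in Pam3CSK4-Pam3CSK4 against unstimulated, in place of 15, and against the naive ligand 8 in Pam3CSK4-MDP, in place of 14, and 6 in Pam3CSK4-Pam3CSK4, in place of 10. In the count of 9 lower, Anln, Aurka, Cdca3, Cenpf, Kif23 and Kif2c were lost. Centring arrays on their medians gave 5 members higher in MDP-MDP than in naive MDP, in place of 3, and adding 32 to the linear values gave 0. Adding 32 also gave 5 lower in Pam3CSK4-Pam3CSK4 than in naive Pam3CSK4, in place of 10. Leaving out the less specific probe sets gave 1 member, in place of 0, higher than the naive ligand in each Pam3CSK4-pretreated array. Over the scaling, probe set and low-value alternatives the count lower than unstimulated ran from 13 to 18 in Pam3CSK4-MDP and from 9 to 17 in Pam3CSK4-Pam3CSK4. Beyond what each alternative does by construction, the cause was not tested. Cenpa was 9.10-fold and 8.77-fold lower by its brightest probe set, but its log2 difference was -1.26 and -1.27 by the mean. No array had a replicate, so leaving one out was not possible. No paired analysis was possible because each group had 1 array. Of the members' values on the 7 arrays, 1 was below its array's median. Others lay not far above it, such as Cenpf at 5.79 and 5.98 on the Pam3CSK4 pair, where the medians were 5.53 and 5.54. Adding 32 makes every difference smaller, most of all at low levels, so calls close to the 2-fold line can also drop out. Which of these moved the counts was not tested.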
